A study of Mus musculus with 15 samples.

Results

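The Zscan4 cluster, Zfp352 and the Tdpoz genes belong to the transcripts that mouse embryos switch on at the 2-cell stage. Of 10 listed symbols, 8 were rows of a table of 14392 genes, namely Zscan4a, Zscan4b, Zscan4c, Zscan4d, Zscan4f, Zfp352, Tdpoz3 and Tdpoz4. They were chosen by name, with earlier results of these data known. Tcstv1 and Tcstv3 were not analysed here. RNA was sequenced from 8 Smart-seq2 libraries of 10 embryos each, with 2 libraries per group. WT zygotes and WT 2-cell embryos carried intact Usp16 from both parents. The cKO zygotes and cKO 2-cell embryos came from Usp16 fl/fl;Gdf9-Cre mothers, in which Cre acts in the growing oocyte, and from WT males. The labels give these embryos as Usp16 maternal - / paternal +, so the paternal allele was intact. All mice were C57BL/6. The embryos of a library were pooled, and the labels do not say whether the 2 libraries of a group came from different mothers. Every p-value below therefore rests only on the spread between pools within a group, taken over the 4 groups together unless stated.

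As background, zygotic genome activation is the step at which the embryo begins to transcribe its own genome, and in mice its major wave falls in the 2-cell stage. Zscan4 genes encode proteins with a SCAN domain and zinc fingers. They are known for a burst of expression in late 2-cell embryos and in rare embryonic stem cells that resemble them, where they act on telomeres and chromatin. Zfp352 encodes a zinc finger protein made chiefly at the 2-cell stage. Tdpoz genes encode small proteins with a TRAF-like domain and a POZ domain, a pairing also found in the ubiquitin ligase adaptor Spop. Usp16, the gene deleted in the mothers, encodes an enzyme that removes ubiquitin from histone H2A.

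Both families lie in tandem arrays. In the mouse build mm9 with GENCODE M1, 6 annotated Zscan4 copies were found within 618 kb of chromosome 7 (chr7:11486098-12104460) and 5 Tdpoz copies within 310 kb of chromosome 3 (chr3:93455493-93765236). Zscan4b spans chr7:11486098-11490399 on the minus strand, Zscan4c chr7:11591071-11595896 on the plus strand, Zscan4d chr7:11746992-11751497 on the minus strand and Zscan4f chr7:11983264-11988090 on the plus strand, each with 4 exons. Zscan4a is not placed, since that annotation holds no entry under its symbol. Tdpoz4 (chr3:93600320-93601432) and Tdpoz3 (chr3:93629942-93631039) are single-exon genes on the plus strand. Zfp352, on the plus strand of chromosome 4 (chr4:89885511-89892393), has 2 exons and stands alone.

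The copies differ at few bases, which bears on every value of a single Zscan4 gene. The coding sequences of Zscan4c and Zscan4f differed at 6 of 1521 bases (99.61% identity), and Zscan4d differed from each of them at 35 bases (97.7%). Across these 3 genes, 38 coding positions varied. The untranslated parts and the other copies were left out of this count. The 60-base stretch with the most of these positions is shown, since these 3 coding sequences differ most there. It covers coding positions 1032 to 1091, counted from 1 at the first base of the start codon, within exon 4. The stretch lies at chr7:11594856-11594915 in Zscan4c, chr7:11747700-11747759 in Zscan4d and chr7:11987049-11987108 in Zscan4f, and is written along the direction of transcription with the 6 varying positions in capitals.
Zscan4c: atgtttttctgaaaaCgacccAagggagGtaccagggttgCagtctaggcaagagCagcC
Zscan4d: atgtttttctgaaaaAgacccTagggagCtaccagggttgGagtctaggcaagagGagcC
Zscan4f: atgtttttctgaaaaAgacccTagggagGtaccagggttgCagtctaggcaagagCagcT

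Relative to Zscan4c, both Zscan4d and Zscan4f carried C1047A and A1053T. G1060C, C1072G and C1087G were found in Zscan4d, and C1091T in Zscan4f. Since reads had been trimmed to 50 bases, each transcript was divided into all of its 50-base words, and each word was searched for elsewhere in the genome. Of these words, 97.8% of those of Zscan4f, 91.5% of Zscan4b, 83.3% of Zscan4c and 49.8% of Zscan4d were found at another site. For Zfp352 the share was 10.1%, of which most fell in Zfp353 on chromosome 8. Among Tdpoz genes it was 66.2% for Tdpoz3 and 41.2% for Tdpoz4. Most shared words of Tdpoz3 matched Gm4982, and those of Tdpoz4 included Gm4858, a gene that RefSeq now names Tdpoz8. A value of Zscan4f is therefore largely a value that reads of other copies could enter, whereas Zfp352 is nearly free of this. How the mapping placed reads with several matching sites was not given in the sources used here.

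**Figure D1:**
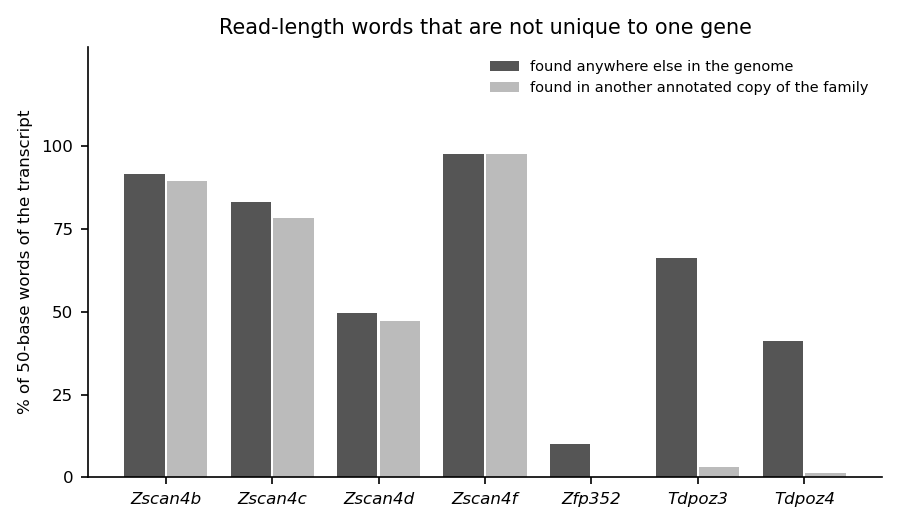
Percentage of the 50-base words of each transcript that also occur at another place in the mm9 genome (dark bars) or in another annotated copy of the same family (light bars), for the 7 genes placed in GENCODE M1. Zscan4f has the highest share at 97.8% and Zfp352 the lowest at 10.1%.

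The sequences before the annotated starts are shown because several Zscan4 genes rose together, and their starts can be set beside that of Zfp352. RefSeq promoter sequences (GRCm38.p6) matched 6 of the 8 genes. The 100 bases before the start are given for the 4 Zscan4 genes, with the motif TATAAA in capitals. They lie at chr7:10905051-10905150 on the minus strand for Zscan4b, chr7:11005645-11005744 on the plus strand for Zscan4c, chr7:11166149-11166248 on the minus strand for Zscan4d and chr7:11397815-11397914 on the plus strand for Zscan4f.
Zscan4b: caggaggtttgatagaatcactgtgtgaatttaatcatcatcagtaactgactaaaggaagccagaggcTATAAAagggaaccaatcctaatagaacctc
Zscan4c: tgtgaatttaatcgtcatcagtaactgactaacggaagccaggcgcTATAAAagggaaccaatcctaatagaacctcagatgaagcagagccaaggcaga
Zscan4d: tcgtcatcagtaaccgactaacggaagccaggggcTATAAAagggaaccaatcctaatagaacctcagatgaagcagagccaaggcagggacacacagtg
Zscan4f: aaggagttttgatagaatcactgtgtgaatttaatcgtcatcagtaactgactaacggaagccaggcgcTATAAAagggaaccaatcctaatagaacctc

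All 4 held TATAAA on the sense strand, 31 bases before the annotated start in Zscan4b and Zscan4f, 54 bases in Zscan4c and 65 bases in Zscan4d, with the same letters after it. TATAAA was found in the same 100-base window and strand of 3.8% of 32851 promoters. The motif CCAAT, searched on both strands of 250 bases, was also present in each of the 4 and in 33.85% of all promoters. The 250 bases before Zfp352 (chr4:90218570-90218819, plus strand) are shown because they are built differently, from a repeated unit that carries TAATCC, in capitals.
Zfp352: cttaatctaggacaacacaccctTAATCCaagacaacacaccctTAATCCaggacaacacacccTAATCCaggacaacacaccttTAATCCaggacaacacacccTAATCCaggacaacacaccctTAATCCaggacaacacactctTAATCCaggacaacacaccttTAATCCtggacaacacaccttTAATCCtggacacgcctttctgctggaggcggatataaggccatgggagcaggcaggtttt

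Zfp352 held 9 copies of TAATCC on the sense strand. TAATCC was found at least once, on either strand, in 6.25% of the 32851 promoters, and 1 promoter, that of Zfp352, held as many as 9. TATAAA was found in the 100 bases, and CCAAT in the 250 bases, of neither Zfp352 nor Tdpoz4. These matches describe the letters only.

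Usp16 itself followed the labels in zygotes, at 184 and 187 FPKM in WT libraries and 16.8 and 22.0 in cKO libraries. At the 2-cell stage it was at 168 and 183 FPKM in WT embryos and at 168 and 84.8 in cKO embryos, whose paternal allele was intact. Values are FPKM, the number of fragments of a gene scaled to its exon length and to the mapped fragments of the library, so levels of different genes can be compared. Every value under 1 had been set to 1, a floor at which the level of a gene is unknown. The values carry no counts, so the depth behind them is unknown. Markers of oocytes and early embryos, such as the zona pellucida and Nlrp5 genes, were above the floor in all 8 libraries (11 of 11 listed genes). The libraries of the cKO 2-cell group differed most from each other: over 9086 genes above the floor in both genotypes, 36.1% were more than 2-fold apart in the cKO pair, compared with 4.20% in the WT pair. The summed FPKM of cKO 2-cell replicate 2 was 770989, compared with 547752 to 593317 in the other 7 libraries.

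In WT embryos, 7 of the 8 genes rose from zygotes to 2-cell embryos, and Zscan4b did not pass the test. Zfp352 rose most, from 1.45 and 1 FPKM in zygotes to 280.3 and 468 in 2-cell embryos. Its mean of 374 ± 133 (SD, n = 2) was at least 306-fold higher than in zygotes, with 1 zygote library at the floor. Zfp352 stood at the 97.7th and 98.9th percentile of FPKM in the WT 2-cell libraries.

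The 4 Tdpoz genes of the table were at or near the floor in zygotes. Tdpoz4 was at 1.32 and 1 FPKM in WT zygotes and at 88.3 and 87.1 FPKM in WT 2-cell embryos. Tdpoz3 went from the floor to 18.6 and 19.4 FPKM. The WT 2-cell libraries lay within 1.04-fold of each other for both genes, the closest replicates of any member. Tdpoz1 and Tdpoz2, relatives that were not members, went from the floor to 124 and 144 FPKM and to 50.4 and 100.4 FPKM.

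Among the Zscan4 genes, Zscan4d was the only one above the floor in every WT zygote library, at 2.77 and 2.45 FPKM, and it reached 42.4 and 52.5 FPKM in 2-cell embryos. Zscan4a went from the floor to 32.9 and 40.1 FPKM. Zscan4f went from the floor to 17.9 and 29.1 FPKM, and Zscan4c from the floor to 9.60 and 19.0 FPKM. In all of these the 2-cell libraries lay far above the zygote libraries, and replicate 2 was higher than replicate 1. Zscan4b was at 1 and 1.34 FPKM in 2-cell embryos, so it was barely detected at any stage.

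Since the floor hides the zygotic level, the rise of a gene at the floor is a lower bound. It was at least 36.5-fold for Zscan4a, at least 23.5-fold for Zscan4f, at least 19.0-fold for Tdpoz3 and at least 14.3-fold for Zscan4c, compared with 18.2-fold for Zscan4d. For Tdpoz4, with 1 of its 2 WT zygote libraries at the floor, it was at least 75.8-fold. By the study's rule of a more than 3-fold difference of means, 7 of 8 members were higher in WT 2-cell embryos, against 26% of all genes. Both 2-cell libraries exceeded both zygote libraries for 7 of 8, against 49.4% of all genes. limma, fitted to log2(FPKM + 1) of all genes with 2 libraries per group, called 7 of 8 higher at an adjusted p under 0.05 (34.2% of all genes). The limma log2 fold change was 7.36 (SE 0.33, adjusted p = 8.69e-05) for Zfp352, 5.37 (SE 0.24, adjusted p = 8.65e-05) for Tdpoz4, 4.22 (SE 0.43, adjusted p = 0.00057) for Zscan4a and 3.32 (SE 0.66, adjusted p = 0.00713) for Tdpoz3. For Zscan4d, Zscan4f and Zscan4c it was 3.74, 3.58 and 2.86, with adjusted p of 0.00154, 0.00251 and 0.000746. On this scale the change of low genes is understated. The call of Tdpoz3 was lost when either WT 2-cell library was left out, with an adjusted p of up to 0.0671.

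The order of levels in WT 2-cell embryos ran from Zfp352 (mean 374 FPKM) through Tdpoz4 (87.7 FPKM), Zscan4d (47.4 FPKM) and Zscan4a (36.5 FPKM) to Zscan4f (23.5 FPKM), Tdpoz3 (19.0 FPKM), Zscan4c (14.3 FPKM) and Zscan4b (1.17 FPKM). The libraries of neighbours in this order did not overlap, except those of Zscan4f and Tdpoz3 and those of Tdpoz3 and Zscan4c, whose order is therefore not resolved. Of the summed FPKM of the 5 Zscan4 copies in WT 2-cell embryos, Zscan4d took 40.9% and 36.9% and Zscan4a 31.7% and 28.2%. These shares rest on how reads were divided among copies.

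**Figure D2:**
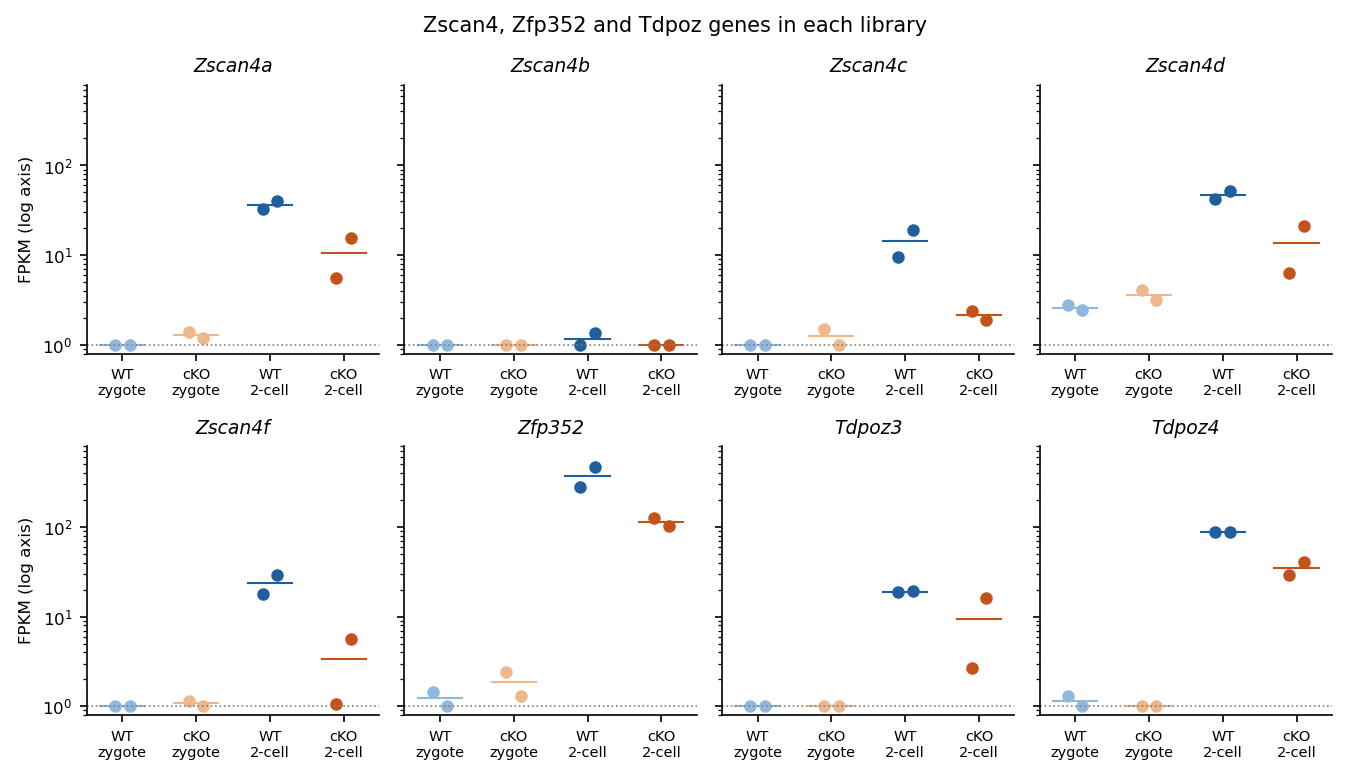
FPKM of each of the 8 genes (log axis) in the 8 libraries, with 1 point per library, a bar at the mean of the 2 libraries of a group and the floor of 1 as a dotted line. In 7 panels the WT 2-cell points lie above all zygote points and above both cKO 2-cell points, and Zscan4b stays at or near the floor.

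In zygotes the loss of maternal Usp16 was not accompanied by a detected difference in any member. Zscan4d was at 4.04 and 3.20 FPKM in cKO zygotes, above the 2.77 and 2.45 FPKM of WT zygotes. Zscan4a was at 1.39 and 1.20 FPKM in cKO zygotes, compared with the floor in both WT libraries. These were the 2 of 8 members whose cKO libraries both exceeded both WT libraries, against 15.8% of all genes. Zfp352 was at 2.44 and 1.31 FPKM in cKO zygotes, overlapping the WT range. Zscan4c was at 1.51 FPKM and Zscan4f at 1.16 FPKM in cKO replicate 1, and both were at the floor in replicate 2, while Zscan4b, Tdpoz3 and Tdpoz4 were at the floor in both. No member differed by more than 3-fold (0.104% of all genes were higher and 0.0486% lower), and limma called 0 members at an adjusted p under 0.05 (0.0208% of all genes higher and 0% lower), with 0 of 8 at an unadjusted p under 0.05. The 95% interval of the log2 difference ran from -0.87 to 1.57 for Zscan4d and from -0.46 to 1.16 for Zfp352. With 2 libraries against 2, the smallest p an exact permutation test allows is 0.333. Usp16 itself was 9.58-fold lower in cKO zygotes and was not called by limma either (adjusted p = 0.191). The absence of calls among the members therefore does not show that their levels were alike.

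In cKO embryos 4 of the 8 genes passed the test for a rise between the stages. Zfp352 reached 125 and 103 FPKM in cKO 2-cell embryos and Tdpoz4 29.1 and 40.8 FPKM. Zscan4a reached 5.58 and 15.5 FPKM, Zscan4d 6.35 and 20.9 FPKM and Tdpoz3 2.69 and 16.2 FPKM. Zscan4c stayed at 2.37 and 1.92 FPKM, and Zscan4f was at 1.07 and 5.66 FPKM, so that its replicate 1 lay within the range of cKO zygotes.

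From cKO zygotes to cKO 2-cell embryos, the mean of Zfp352 was 60.7-fold higher, that of Tdpoz4 at least 34.9-fold, that of Tdpoz3 at least 9.46-fold and that of Zscan4a 8.14-fold. Smaller ratios were found for Zscan4d (3.76-fold), Zscan4f (3.12-fold) and Zscan4c (1.71-fold). Of the 8 members, 6 were more than 3-fold higher (22.8% of all genes), and both libraries were higher for 6 (32.3% of all genes). limma called 4 (24.6% of all genes), with log2 fold changes of 5.34 for Zfp352 (adjusted p = 0.00011), 4.15 for Tdpoz4 (adjusted p = 9.47e-05), 2.18 for Zscan4a (adjusted p = 0.00633) and 1.99 for Tdpoz3 (adjusted p = 0.0445). Zscan4d narrowly missed with an adjusted p of 0.0504, whereas Zscan4c and Zscan4f had adjusted p of 0.253 and 0.249. Without cKO 2-cell replicate 2, 3 members were more than 3-fold higher, and the limma call of Tdpoz3 was lost under 7 of 14 alternatives.

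At the 2-cell stage, 7 of the 8 genes had both cKO libraries below both WT libraries, against 43.4% of all genes. The mean of Zscan4f was 6.98-fold lower in cKO embryos and that of Zscan4c 6.67-fold lower. The difference was 3.48-fold for Zscan4d, 3.46-fold for Zscan4a and 3.28-fold for Zfp352. For Tdpoz4 it was 2.51-fold and for Tdpoz3 2.01-fold. Zscan4b, at or near the floor in both genotypes, gave no usable ratio.

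By the rule of more than 3-fold, 5 of 8 members were lower, against 13.5% of all genes, and 0 were higher, against 2.84%. limma called 6 of 8 lower, against 24.6% of all genes, and 0 higher, against 6.16%. Its log2 fold changes were -2.68 for Zscan4f (SE 0.54, adjusted p = 0.0147), -2.21 for Zscan4c (SE 0.32, adjusted p = 0.00536) and -1.67 for Zfp352 (SE 0.33, adjusted p = 0.0141). They were -1.92 for Zscan4d (SE 0.50, adjusted p = 0.0324), -1.84 for Zscan4a (SE 0.43, adjusted p = 0.0236) and -1.32 for Tdpoz4 (SE 0.24, adjusted p = 0.0104). Tdpoz3 did not pass, with -1.33 (SE 0.66, adjusted p = 0.183) and a 95% interval from -2.93 to 0.28. Each library pooled 10 embryos, so fewer embryos that expressed a gene and less of its RNA per embryo cannot be told apart.

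The calls of Zscan4a and Zscan4d were lost under median-ratio scaling, quantile normalization and weights per group. They were also lost whenever a zygote library or a WT 2-cell library was left out. They were kept without a cKO 2-cell library, but that group, the most variable, then added no spread to the fit. With a library left out, the log2 fold change ran from -2.50 to -1.18 for Zscan4a and from -2.71 to -1.14 for Zscan4d. Without WT 2-cell replicate 2, limma called 2 members, Zscan4c and Tdpoz4. Zscan4c kept its call under 13 of 14 alternatives. limma assumed 1 spread for all groups. For Zscan4a, Zscan4b, Zscan4c, Zscan4f and Tdpoz3 both WT zygote libraries were at the floor, so an SD of 0 entered that spread. The 2-cell libraries varied more than the zygote libraries. Estimated weights were 0.509 for WT and 0.201 for cKO 2-cell embryos against 2.40 and 4.06 for the zygote groups. With these weights 1 member, Zscan4f, was called, and a fit of the 2-cell groups alone called 0 members, as it did for all genes. That fit was not among the 14 alternatives, so Zscan4c lost its call there as well.

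**Figure D3:**
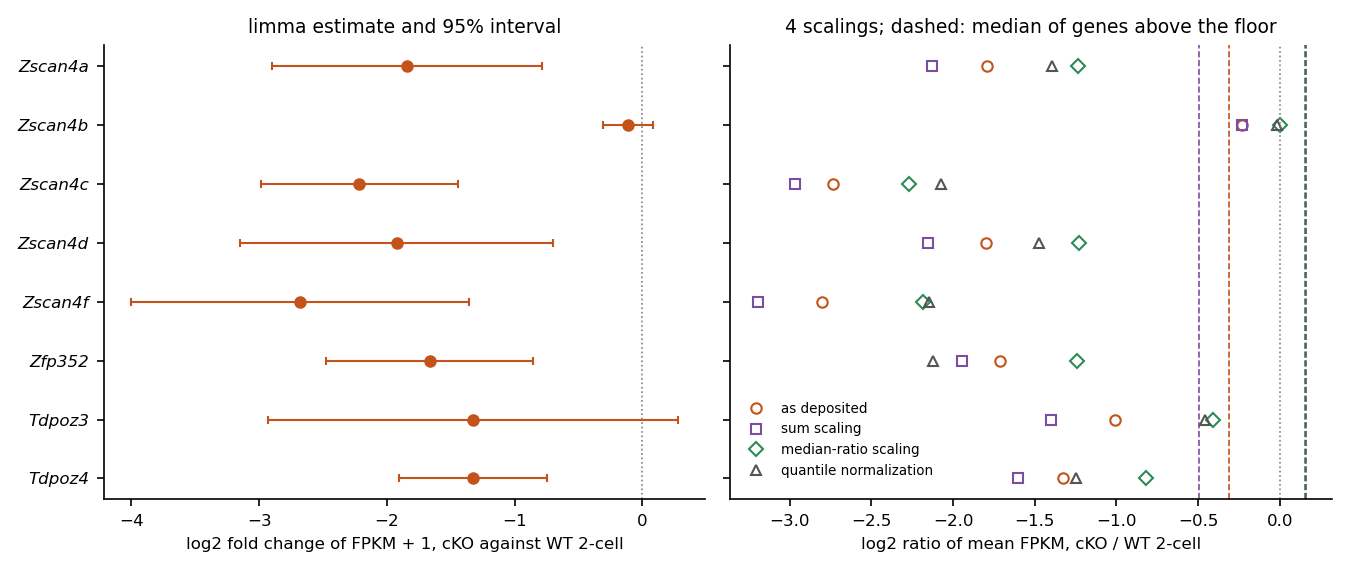
Left, limma estimate of the log2 fold change of FPKM + 1 in cKO against WT 2-cell embryos with its 95% interval (2 libraries per group). Right, log2 ratio of the group means under 4 scalings, with the median of genes above the floor under each as a dashed line of the same colour; 7 genes lie below their own dashed line under every scaling, and Zscan4b lies near 0.

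The scale on which libraries are compared moved these differences, because the median gene above the floor was itself lower in cKO 2-cell embryos, by 0.31 on the log2 scale (-0.31). More genes were at the floor in the cKO 2-cell libraries (3684 and 4240) than in the WT 2-cell libraries (1642 and 1716), and the part of this in the results was not tested. Against that shift, the median member was at -1.75. With libraries brought to a common scale by the median of their gene ratios, the median gene stood at 0.15 and the median member at -1.23, 7 members remained lower and none was higher. Under this scaling Zscan4c was 4.81-fold and Zscan4f 4.54-fold lower, the only members past 3-fold. Zfp352 was then 2.37-fold lower, Zscan4a 2.35-fold, Zscan4d 2.35-fold, Tdpoz4 1.76-fold and Tdpoz3 1.33-fold. Quantile normalization left Zscan4f, Zfp352 and Zscan4c past 3-fold, at 4.44, 4.35 and 4.20-fold.

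With genes at the floor included as listed, the cKO to WT ratio was lower than that of Zscan4f in 1.64% of all genes, than that of Zscan4c in 1.89% and than that of Zscan4d in 9.96%. It was lower than that of Zscan4a in 10.1%, Zfp352 in 11.2%, Tdpoz4 in 19.2% and Tdpoz3 in 28.5%. Among the 3739 genes that rose more than 3-fold in WT embryos the shares were alike, from 2.49% for Zscan4f to 29.4% for Tdpoz3. By these means, Zscan4a, Zscan4c, Zscan4d and Zscan4f stood lower in this order than Tdpoz3 and Tdpoz4, which lay nearer to the middle of all genes. The ratio of Zscan4b was of no use in this order. In cKO replicate 1 alone, Tdpoz3 (14.1% of the WT mean) lay below Zscan4a (15.3%) and Zscan4c (16.6%). It lay above Zscan4d (13.4%) and Zscan4f (4.57%) there. Only in replicate 2 were both Tdpoz members above each of those Zscan4 genes. Reads shared among copies also limit this order.

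**Figure D4:**
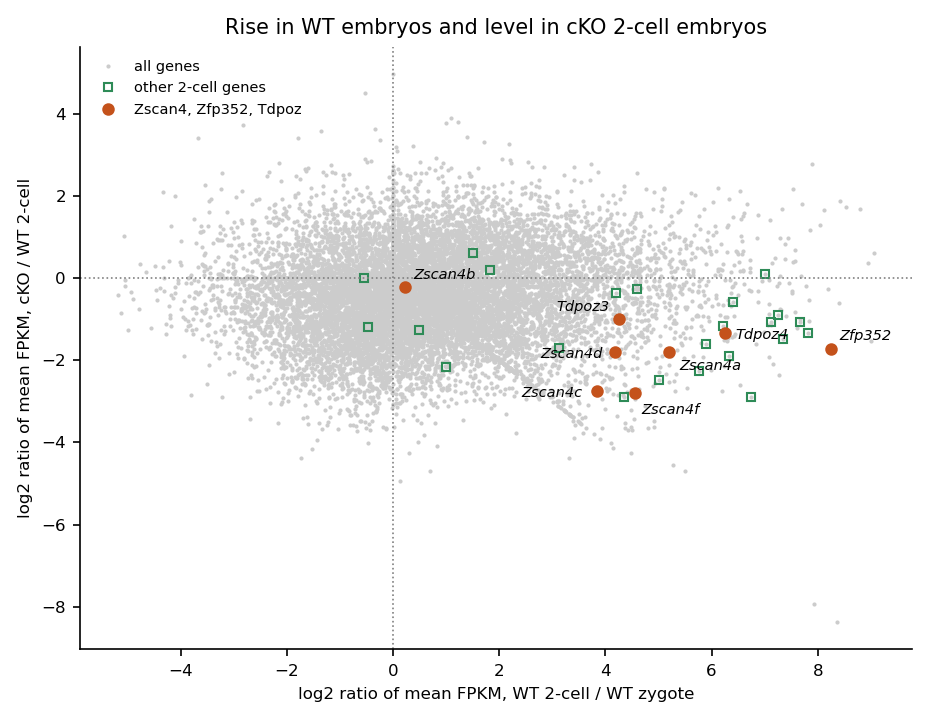
Each point is a gene, placed by the log2 ratio of its mean FPKM in WT 2-cell embryos to WT zygotes (horizontal) and in cKO to WT 2-cell embryos (vertical); both axes use the WT 2-cell libraries, so no relation between them is read. The 8 members (filled circles) and 23 other genes known from 2-cell embryos (open squares) are drawn over all 14392 genes (grey), and Zfp352 stands farthest right of the 8 members, at a rise of at least 306-fold.

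The 2 cKO 2-cell libraries did not show the same picture. Relative to the WT mean, Zscan4a was at 15.3% in replicate 1 and 42.5% in replicate 2, and Zscan4d at 13.4% and 44.1%. Zscan4f was at 4.57% and 24.1%, and Tdpoz3 at 14.1% and 85.4%. These 4 members were more than 2-fold higher in replicate 2 than in replicate 1, against 36.1% of genes past 2-fold in either direction.

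The other members did not follow this split. Zscan4c was at 16.6% and 13.4% of the WT mean and Zfp352 at 33.3% and 27.6%, both slightly lower in replicate 2. Tdpoz4 was at 33.1% and 46.5%. Of the relatives that were not members, Tdpoz1 was at 26.2% and 64.5% and Tdpoz2 at 34.8% and 35.5%. The sizes for Zscan4a, Zscan4d, Zscan4f and Tdpoz3 therefore depend on which library is taken. Without replicate 1, 3 members were more than 3-fold lower, and without replicate 2, 7 members were. Usp16 was at 168 FPKM in replicate 1 and 84.8 in replicate 2, and summed FPKM was highest in replicate 2, but their part in this split was not tested.

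**Figure D5:**
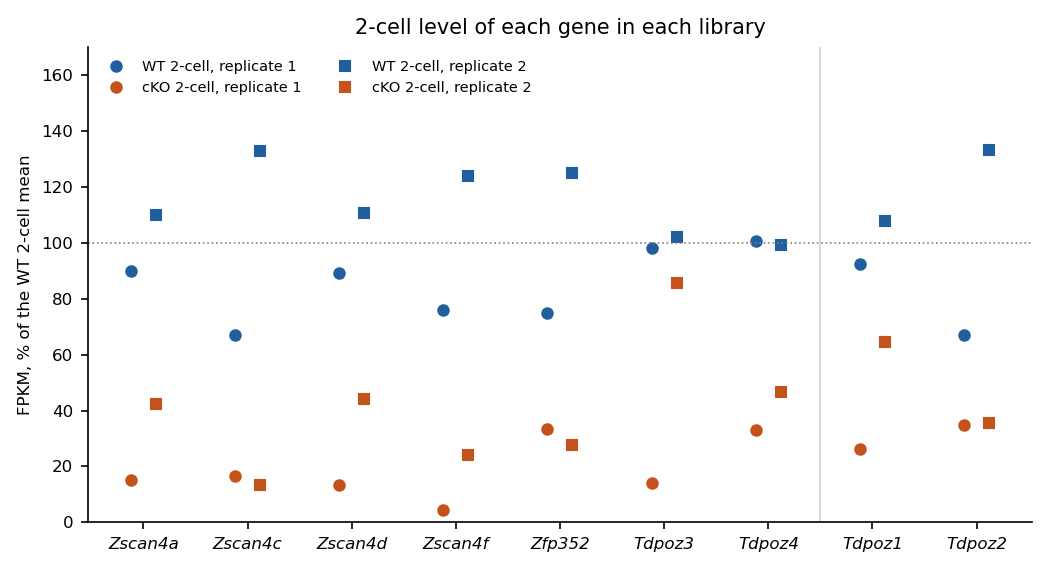
FPKM of each gene in the 4 2-cell libraries as a percentage of the WT 2-cell mean (dotted line at 100%), with circles for replicate 1 and squares for replicate 2 of WT (blue) and cKO (orange); Tdpoz1 and Tdpoz2, right of the vertical line, were not members and Zscan4b is not drawn. The cKO squares of Zscan4a, Zscan4d, Zscan4f and Tdpoz3 lie far above the circles, up to 85.4% for Tdpoz3, whereas both marks of Zscan4c lie under 17%.

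Since copies can exchange reads, the FPKM of each family was also summed, with a copy at the floor counted as 1. These sums leave out the annotated copies Zscan4e, Zscan4-ps2 and Tdpoz5, which were not rows of the table. They further leave out sites beyond the annotated copies, where many 50-base words also occur. The share of words found there was 68.1% for Zscan4c, 43.1% for Zscan4d, 72.0% for Zscan4f, 66.2% for Tdpoz3 and 41.2% for Tdpoz4. The 5 Zscan4 copies summed to 104 and 142 FPKM in WT 2-cell embryos and to 16.4 and 45.0 FPKM in cKO 2-cell embryos. Both cKO sums lay below both WT sums, at 13.3% and 36.6% of the WT mean. The mean was 4.01-fold lower, with a limma log2 fold change of -2.11 (SE 0.46, adjusted p = 0.0181). The sum in zygotes was 6.77 and 6.45 FPKM in WT and 9.10 and 7.41 FPKM in cKO embryos.

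The 4 Tdpoz copies summed to 281 and 351 FPKM in WT and to 93.1 and 170.2 FPKM in cKO 2-cell embryos. The cKO sums were 29.5% and 53.9% of the WT mean, and the mean was 2.40-fold lower, with a limma log2 fold change of -1.31 (SE 0.31, adjusted p = 0.0232). In zygotes every Tdpoz value but that of Tdpoz4 in WT replicate 1 was at the floor. Within the Zscan4 sum, Zscan4d took 38.8% and 46.5% and Zscan4a 34.1% and 34.5% in cKO embryos, so those 2 genes led the cluster in both genotypes. The share of Zscan4f was 6.56% and 12.6% in cKO embryos, compared with 17.2% and 20.5% in WT embryos.

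The interaction term of limma tested whether the genotypes differed more at one stage than at the other. It was called for 2 of 8 members, both with a lower effect at the 2-cell stage, against 10.2% of all genes. For Zscan4c the log2 difference of effects was -2.38 (SE 0.45, adjusted p = 0.0279) and for Zfp352 -2.02 (SE 0.47, adjusted p = 0.0457). For Zscan4f, Tdpoz4, Zscan4a and Zscan4d the estimates were -2.74, -1.22, -2.04 and -2.28, with adjusted p between 0.0674 and 0.0886, although 6 of 8 members had an unadjusted p under 0.05. This count rests on single libraries, since it fell without any 1 zygote library and rose without either cKO 2-cell library. In the latter case the most variable group added no spread to the fit. Of the 4 zygote libraries, 3 had Zscan4c at the floor, both of WT among them, and 1 of WT had Zfp352 there. The floor limits how far the zygotic effect can lie from 0, so the term largely restates the 2-cell difference.

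Other genes known for 2-cell expression, or for induction in 2-cell-like stem cells, were read beside the members. Of 43 listed symbols, 23 were rows of the table. In WT embryos 18 of the 23 were more than 3-fold higher at the 2-cell stage (26% of all genes) and in cKO embryos 17 were (22.8% of all genes). In cKO against WT 2-cell embryos 8 were more than 3-fold lower (13.5% of all genes) and 0 higher, limma called 10 lower (24.6% of all genes) and 0 higher, and the median ratio was 0.44. The 8 genes, named after their values were seen, were Gm12794 (7.44-fold), Dub1 (7.40-fold), Gm428 (5.62-fold), BC080695 (4.76-fold), Cml2 (4.51-fold), Tmem92 (3.76-fold), Pramef6 (3.25-fold) and Gm2016 (3.05-fold).

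The most abundant of these genes varied. Sp110, a nuclear body protein, was at 1147 and 1024 FPKM in WT and at 1340 and 1153 FPKM in cKO 2-cell embryos. Ubtfl1, a relative of the nucleolar factor Ubtf, was at 127.6 and 127.9 FPKM in WT and at 109 and 165 FPKM in cKO embryos. Gm8300 was at 184 and 265 FPKM in WT and at 45.6 and 130.8 FPKM in cKO embryos. Rfpl4b was at 172 and 236 FPKM in WT and at 92.7 and 103 FPKM in cKO embryos, and it was called lower by limma (adjusted p = 0.0168). Besides Sp110 and Ubtfl1, D5Ertd577e had a higher mean in cKO embryos, at 24.3 and 21.7 FPKM in WT and 29.3 and 40.9 FPKM in cKO embryos. Dux, the homeobox factor known to switch on this group, was at 1.94 and 1 FPKM in WT zygotes, 1.83 and 1.03 FPKM in cKO zygotes and at the floor in every 2-cell library.

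Of 15 listed positive regulators of the 2-cell programme, 13 were in the table. In cKO against WT 2-cell embryos 1 was more than 3-fold higher (2.84% of all genes) and 1 lower (13.5% of all genes). limma called 2 higher (6.16% of all genes) and 2 lower (24.6% of all genes), and the median ratio was 0.85. The 2 that were higher were Dppa2 and Dppa4, partners that are known to act upstream of Dux. Dppa2 was at 221 and 203 FPKM in WT and at 817 and 618 FPKM in cKO embryos, 3.39-fold higher (adjusted p = 0.00512 by limma). Dppa4 was at 236 and 264 FPKM in WT and at 657 and 483 FPKM in cKO embryos, 2.28-fold higher. Obox5, a maternal and zygotic homeobox gene, was at 567 and 629 FPKM in WT and 121 and 234 FPKM in cKO embryos (3.36-fold lower), and the T-box factor Tbx3 was 2.88-fold lower. Obox3 was at 1060 and 1204 FPKM in WT and at 681 and 1081 FPKM in cKO embryos and was not called. Nr5a2 had a 1.91-fold higher mean in cKO embryos and was not called. Kdm5b was at 43.2 and 47.5 FPKM in WT and at 139.7 and 32.6 FPKM in cKO embryos, so that its libraries overlapped.

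Of 20 listed repressors of the programme, 19 were in the table. In cKO 2-cell embryos 1 was more than 3-fold higher (2.84% of all genes) and 1 lower (13.5%), with a median ratio of 1.18. Means in cKO 2-cell embryos were higher for 11 and lower for 8. limma called 1 higher (6.16% of all genes) and 1 lower (24.6% of all genes). Sumo2, whose product is the modifier attached in SUMOylation, was at 483 and 440 FPKM in WT and at 1562 and 1731 FPKM in cKO 2-cell embryos (3.57-fold higher, adjusted p = 0.00736 by limma). The RNA-binding protein gene Lin28a was at 22.2 and 14.1 FPKM in WT and at 1 and 4.76 FPKM in cKO embryos, at least 6.31-fold lower. The PRC1 genes Pcgf6 and Rnf2 were 1.30-fold and 1.22-fold higher and Rif1 1.04-fold higher, none of them called. Lower means were also found for Uhrf1 (2.23-fold), Chaf1a (2.19-fold), L3mbtl2 (1.53-fold), Chaf1b (1.41-fold), Smchd1 (1.31-fold), Dnmt1 (1.29-fold) and Setdb1 (1.28-fold), none of them called.

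Genes that share a domain with the members and have a wider expression were listed as wider relatives. Of 13 such genes 7 were in the table. Of these 1, Spop, was more than 3-fold higher in WT 2-cell embryos than in zygotes (3.23-fold), against 26% of all genes. In cKO against WT 2-cell embryos 1 was more than 3-fold lower (13.5% of all genes) and 0 higher (2.84%), with a median ratio of 0.668. limma called 3 lower (24.6% of all genes) and 0 higher (6.16%). The one more than 3-fold lower was Zscan10, at 4.44 and 6.42 FPKM in WT embryos. It was at the floor in both cKO libraries, so at least 5.43-fold lower. Spop, the ligase adaptor, was at 39.6 and 46.9 FPKM in WT and at 21.4 and 12.4 FPKM in cKO embryos (2.55-fold lower). Zscan21 was 1.35-fold lower and was not called. Zscan12 was at 2.15 and 3.03 FPKM in WT and at 6.34 and 1.68 FPKM in cKO embryos, so that its libraries overlapped.

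The genes flanking the loci were taken by position, 5 of the table on each side. Next to the Zscan4 cluster, the rule of more than 3-fold lower in cKO 2-cell embryos was met by 0 of 10 (13.5% of all genes). Around Zfp352, 1 of 10 was more than 3-fold higher in WT 2-cell embryos than in zygotes (26% of all genes). In cKO embryos 2 were more than 3-fold lower (13.5% of all genes) and 1 higher (2.84%). Around the Tdpoz array, 9 of 10 were more than 3-fold higher in WT 2-cell embryos (26% of all genes) and 3 were more than 3-fold lower in cKO embryos (13.5% of all genes). The difference between the loci was not tested.

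The Tdpoz neighbours included further relatives. Gm10696, which RefSeq names Spopfm2, was at 551 and 764 FPKM in WT and at 118 and 188 FPKM in cKO 2-cell embryos, 4.29-fold lower. Gm4858, named Tdpoz8 in RefSeq, was at 72.5 and 81.7 FPKM in WT and at 23.4 and 36.0 FPKM in cKO embryos, 2.59-fold lower. Both followed the direction of Tdpoz4. Them4, a thioesterase gene, was at 71.4 and 58.7 FPKM in WT and at 74.2 and 120.2 FPKM in cKO embryos, and Tdrkh was 1.40-fold lower, neither of them called. The calcium-binding protein genes S100a11 and S100a10 were 8.14-fold and at least 6.15-fold lower, with S100a10 at the floor in 1 cKO library.

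The genes most like Zscan4d over the 8 libraries, by Pearson's r of log2(FPKM + 1), were Lin7b (r = 0.996), Tmem97 (0.996), Cdc42ep4 (0.995), Srd5a1 (0.994) and Esyt3 (0.993), and 363 genes had an r above 0.95. Tmem97, for example, was at 192 and 221 FPKM in WT and at 63.4 and 145.7 FPKM in cKO 2-cell embryos, with the same split between cKO replicates as Zscan4d. Those most like Zfp352 were Ddx51 (r = 0.998), Slc34a2 (0.998), Itgav (0.997), 4921531C22Rik (0.997) and Rab2b (0.997), and 1264 genes had an r above 0.95. Slc34a2 was at 98.9 and 153 FPKM in WT and at 53.2 and 48.5 FPKM in cKO embryos, close to each other in the cKO pair as Zfp352 was. Among the members, r was 0.992 between Zscan4a and Zscan4d, 0.993 between Zfp352 and Tdpoz4, and 0.824 between Zfp352 and Zscan4f. These values describe 8 libraries that fall into a low zygote and a high 2-cell set, and every gene that rose shares that step. The most alike genes were picked over these same libraries, so their likeness between the cKO replicates was favoured by the choice.

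Markers of other cells were read beside the members. The summed FPKM of the 11 oocyte markers was between 11610 and 12226 in zygotes, 6203 and 5069 in WT 2-cell embryos and 1212 and 2717 in cKO 2-cell embryos. Oosp1 was the largest part of it in the 2-cell libraries, at 4936 and 3711 FPKM in WT and 544 and 1876 FPKM in cKO embryos. Zp3 and Gdf9 had higher means in cKO embryos, with Gdf9 at 195 and 304 FPKM in WT and at 266 and 367 FPKM in cKO embryos. Of 17 cumulus and granulosa markers 5 were in the table, with sums of 35.6 and 45.9 in WT and 22.1 and 23.5 in cKO 2-cell embryos, most of it from Amhr2. Of 6 sperm markers 4 were in the table and summed to at most 11.4, and of 6 blood markers 3, which summed to at most 15.5, in 2-cell embryos. Of 10 markers of later preimplantation stages 9 were in the table, with sums of 132 and 153 in WT and 141 and 287 in cKO 2-cell embryos, the last of which was mostly Nanog in replicate 2, at 234 FPKM. Krt8 was at 9.91 and 9.01 FPKM in WT embryos and at the floor in cKO embryos. The part of these markers in the results was not tested.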

How the data were processed

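The members, the gene lists and the marker lists were chosen with earlier results of these data known. The authors trimmed the reads to 50 bases, mapped them to the mouse build mm9 with TopHat2 2.1.1 and computed FPKM with Cufflinks 2.2.1, then dropped genes under 1 in every library and raised all lower values to 1. The deposited table holds these FPKM values for 14392 genes and 8 RNA libraries, in 4 groups of 2 assigned from the sample labels. ChIP-seq of ubiquitinated H2A, also in the series, was not used here. No depth and no counting error can be given, and precision rests on 2 libraries a group.

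A gene was called past the study's rule when its group means differed by more than 3-fold. limma 3.58.1 (R 4.3.3) was fitted to log2(FPKM + 1) of all genes, with 4 groups in 1 model, 4 residual degrees of freedom, a trend in the prior and Benjamini-Hochberg adjustment over 14392 genes. The fit shares 1 spread over the groups, and in simulated data whose groups each had their own spread it called more unchanged genes than with a shared one. Replicate numbers were not used as a block, since correlations of the deviations of same-numbered libraries ran from -0.239 to 0.497 over the pairs of groups and nothing in the labels pairs embryos. Alternatives were the pseudocount, the threshold, the type of mean, 3 other scalings, weights per group, the samples fitted, the block and leaving out each library.

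All members were named. Of each list, the 4 genes with the highest mean FPKM in 2-cell embryos were named, besides those that went against the majority, with other genes named only where a count called for them. Loci and transcripts were from GENCODE M1 on mm9, in which 13897 symbols of the table were found, and promoters from RefSeq on GRCm38.p6. Other computations used Python 3.11.15, numpy 2.4.6 and pandas 2.3.3.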

Additional observations from a re-analysis of the deposited data

Results flagged for a closer look

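For 2 genes the interaction of genotype and stage in limma was called, a test of whether cKO and WT embryos differ alike in zygotes and 2-cell embryos. For Zscan4c the log2 difference of the 2 effects was -2.38 (adjusted p = 0.0279, between 0.00421 and 0.137 over 14 alternatives). The libraries of the genotypes overlapped in zygotes, and both cKO libraries were below both WT libraries in 2-cell embryos. For Zfp352 the log2 difference was -2.02 (adjusted p = 0.0457, between 0.0384 and 0.194 over 14 alternatives), with the same order of libraries. Zscan4c was at the floor in 3 of its 4 zygote libraries and Zfp352 in 1, which limits how far the zygotic effect can lie from 0, so the interaction largely restates the difference at the 2-cell stage. Both lost the call when any 1 zygote library was left out. With 2 libraries per group, no group was large enough to single out an outlying sample.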

How the results depend on the processing

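The counts of members higher in WT 2-cell embryos than in WT zygotes, and the count of 0 between the genotypes in zygotes, stayed within 1.5 times under every alternative run. From cKO zygotes to cKO 2-cell embryos, 6 members were more than 3-fold higher, but 3 when every library had to pass, and between 3 and 6 when a library was left out. In this contrast limma called 4, but 2 when fitted to the 2 groups alone. In cKO against WT 2-cell embryos, 5 members were more than 3-fold lower, but 2 at a 5-fold threshold, 2 when every library had to pass, 2 with median-ratio scaling, 3 with quantile normalization, and between 3 and 7 when a library was left out. limma called 6 there, but 2 with median-ratio scaling (Zscan4c and Zfp352), 1 with weights per group, 0 in a fit of the 2-cell groups alone, and between 2 and 6 when a library was left out. The interaction, called for 2 members, was called for 1 without a pseudocount, 1 with a pseudocount of 0.1, 0 with median-ratio scaling, 5 with sum scaling, 0 with quantile normalization, 0 with weights per group and between 0 and 6 when a library was left out. With the replicate block it was called for 0, and the block moved no other count by more than 1.5 times, although the numbers do not pair the samples. Leaving out WT 2-cell replicate 1 gave Zscan4b an adjusted p of 5.74e-05 in cKO against WT 2-cell embryos, from 1 WT library at 1.34 FPKM against 2 at the floor. No change that limma called turned in direction under any alternative. A member's call was compared with that under an alternative 112 times, without the fit of the 2-cell groups alone. In cKO against WT 2-cell embryos 83 of these were unaltered, 27 lost the call and 2 gained it. Unless stated, the cause of these changes was not tested.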
